A study of Homo sapiens with 6 samples.

Results

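The genes described here are HSF1, the master transcription factor of the heat shock response, and 9 cytosolic chaperone genes that it can regulate: HSPA1A, HSPA1B, HSPA8, HSP90AA1, HSP90AB1, HSPH1, DNAJB1, HSPB1 and BAG3. They were chosen by name from the 27605 genes of the deposited table, and all 10 were found, each on 1 row. The libraries were labelled HepG2, an established human liver cancer line, and the cells were grown in DMEM with serum. In 3 libraries, called shNC and labelled WT, the cells carried a control hairpin. In the other 3, called shARHGEF2 and labelled ARHGEF2 knockdown, a lentivirus had been used against ARHGEF2, the exchange factor that activates the small GTPase RhoA. The labels name no heat, drug or tunicamycin treatment of either group, and they give neither the hairpin of each shARHGEF2 library nor whether the libraries of a group came from separate cultures, so the p-values below measure the spread between these libraries, which may be technical. The question put to these genes was whether the knockdown of ARHGEF2, which the study links to endoplasmic reticulum stress, went with a different level of the cytosolic heat shock programme.

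Chaperones of this group bind unfolded stretches of other proteins and help them to fold, to assemble or to be degraded. In unstressed cells HSF1 is held inactive by chaperones. When unfolded proteins draw these away, HSF1 forms trimers, binds heat shock elements (inverted repeats of the letters GAA) near its target genes and raises their transcription. Cancer cells often keep high chaperone levels without any heat.

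All values are FPKM, fragments scaled to the length of the transcripts and to all mapped fragments of the library, so that levels can be compared between genes. The spacing of the low values corresponds to an estimated 20100000 to 23360000 read pairs per library, although only 36.0% to 37.2% of these values lay within 0.1 of a whole number of pairs, against 20% by chance, and no test for counts was used. The targeted gene ARHGEF2 had 13.0, 14.4 and 13.9 FPKM in the shNC libraries and 4.25, 4.0 and 4.82 FPKM in the shARHGEF2 libraries, a log2 fold change of -1.47 (SE 0.11, adjusted p = 0.00244 in limma). It did not pass with no filter on low values (adjusted p = 0.0701) or with the replicate block (adjusted p = 0.0716). Of 10 hepatocyte markers, 5 (ALB, APOB, TTR, TF and FGB) are not in the table, RBP4 reached at most 0.907 FPKM, and AFP, APOA1, SERPINA1 and HNF4A stayed at or under 0.248 FPKM, so the liver label is not borne out by these markers.

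The groups were compared with limma on log2(FPKM + 1) over the 12291 genes that averaged 0.5 FPKM or more, and those with an adjusted p under 0.05 (Benjamini-Hochberg over all genes tested) were called. All 10 genes were tested and 0 were called, where 0.277% of all genes tested were. HSPA1A and HSPA1B, the stress-inducible HSP70 genes, lay just outside the threshold and stood about 1.6 times higher in shARHGEF2 cells. An unadjusted p under 0.05 was reached by 3 of the 10 (13.7% of all genes tested), namely HSPA1A, HSPA1B and BAG3, each higher in shARHGEF2 cells (8.1% of all genes tested in that direction). The same 3 were the genes whose groups did not overlap (20.5% of all genes tested, and 11.3% with shARHGEF2 higher). HSPA1A and HSPA1B share most of their sequence, so these 3 genes are not 3 separate observations. The median log2 fold change of the 10 was 0.16, beside -0.00164 over all genes tested, with 7 higher and 3 lower.

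**Figure D1:**
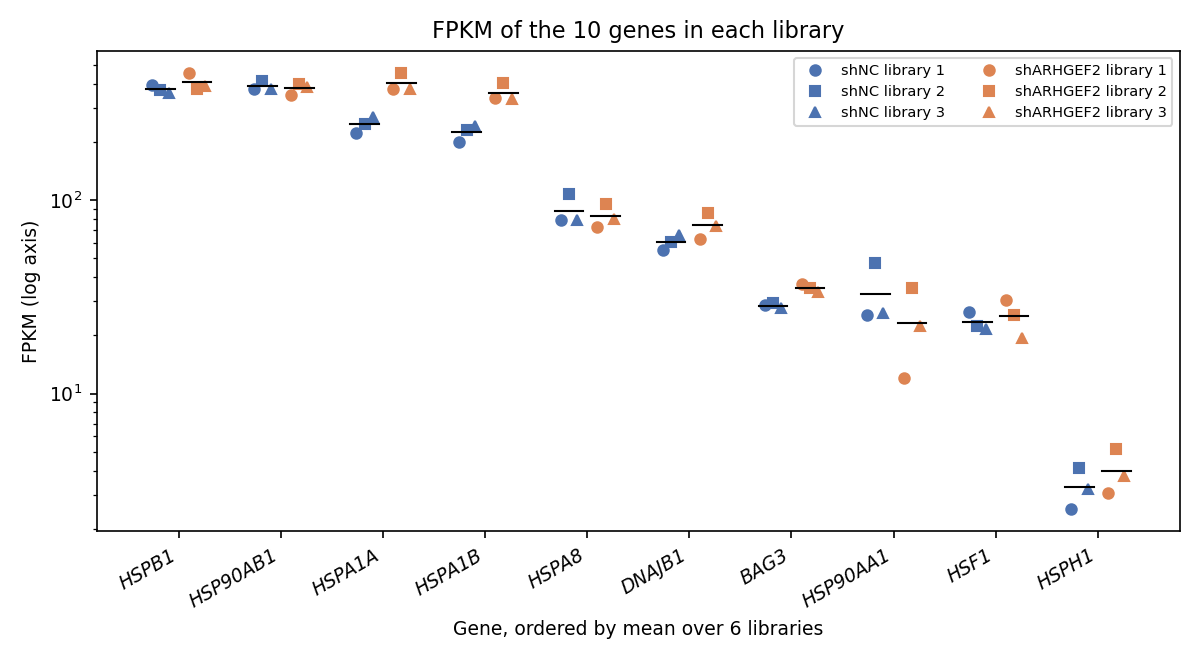
FPKM (log axis) of each of the 10 genes in each library, with shNC in blue, shARHGEF2 in orange, symbols for the library number and black bars for the group means. HSPB1 and HSP90AB1 lay at 348 FPKM or higher in every library and HSPH1 stayed between 2.53 and 5.18 FPKM, and only HSPA1A, HSPA1B and BAG3 have every orange symbol above every blue one.

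By mean over the 6 libraries the genes were ordered HSPB1 (389.8 FPKM), HSP90AB1 (383 FPKM), HSPA1A (324 FPKM), HSPA1B (290.5 FPKM), HSPA8 (85.4 FPKM), DNAJB1 (67.2 FPKM), BAG3 (31.7 FPKM), HSP90AA1 (28.1 FPKM), HSF1 (24.2 FPKM) and HSPH1 (3.64 FPKM). The ranges of neighbours overlapped at every step but 3. The gaps lay between HSPA1B (lowest 199 FPKM) and HSPA8 (highest 107 FPKM), between DNAJB1 (lowest 55.3 FPKM) and BAG3 (highest 36.6 FPKM), and between HSF1 (lowest 19.3 FPKM) and HSPH1 (highest 5.18 FPKM). The neighbours HSPB1 and HSP90AB1 changed places between libraries, HSPB1 being the higher in 3 of 6. DNAJB1 lay below HSPA8 within each of the 6 libraries although their ranges overlapped. The mRNA of the stress-inducible HSP70 pair was therefore more abundant per length than that of the constitutive HSPA8 in every library, control libraries included.

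HSF1 (ENSG00000185122) encodes the factor itself. Its mRNA stood at 26.2, 22.2 and 21.6 FPKM in the shNC libraries and at 30.5, 25.6 and 19.3 FPKM in the shARHGEF2 libraries. The shARHGEF2 group held both the highest and the lowest of the 6 values, and the groups overlapped. The log2 fold change was 0.08 (SE 0.16, 95% interval -0.28 to 0.45, adjusted p = 0.876 in limma), and it was -0.064 without shARHGEF2 replicate 1. HSF1 is activated mainly at the level of the protein, which RNA does not show.

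HSPA1A (ENSG00000204389) and HSPA1B (ENSG00000204388) lie side by side in the MHC class III region and encode the stress-inducible HSP70. HSPA1A had 223, 247 and 269 FPKM in shNC and 375, 456 and 373 FPKM in shARHGEF2 libraries. The lowest shARHGEF2 library thus lay above the highest shNC library, and shARHGEF2 replicate 2 stood apart at the top. The group means were 246 ± 22.9 and 401 ± 47.4 FPKM (SD, n = 3 each), a ratio of 1.63. On the log2 scale the difference was 0.70 (SE 0.11, 95% interval 0.45 to 0.95, adjusted p = 0.0501 in limma, the 38th smallest p of the genes tested). HSPA1B had 199, 229 and 242 FPKM in shNC and 336, 402 and 335 FPKM in shARHGEF2 libraries, in the same order of libraries within each group. Its means were 223.5 ± 22.3 and 357 ± 38.4 FPKM (SD, n = 3 each), a ratio of 1.6 and a log2 fold change of 0.67 (SE 0.11, 95% interval 0.43 to 0.92, adjusted p = 0.0501 in limma). Both passed under a filter that asked for 1 FPKM in 3 libraries (adjusted p = 0.0425 for each) and without shNC replicate 3 (0.0452 and 0.0494). HSPA1A also passed with a pseudocount of 0.1 (adjusted p = 0.0493 in limma). Over the 14 alternatives that tested each gene, the log2 fold change lay between 0.60 and 0.76 for HSPA1A and between 0.59 and 0.73 for HSPA1B. HSPA1A passed in 3 of the 14 and HSPA1B in 2. The adjusted p in limma ran from 0.0425 to 0.348 for HSPA1A and from 0.0425 to 0.368 for HSPA1B.

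The copies cannot be read as separate measurements. Of the stretches of 150 bases (the read length) in the longest HSPA1A transcript, 67.1% also occur in HSPA1B, and 66.0% of those of HSPA1B occur in HSPA1A, whereas the longest transcripts of the other 8 genes share none with a transcript of another gene in GENCODE 29. Each copy shares stretches with 2 other genes in all, which cover 70.03% of those of HSPA1B. HSPA1A took between 51.8% and 53.2% of the summed FPKM of the pair in every library. The sum does not depend on how reads were divided between the copies. Whether a shared read was counted at both copies is not known. The sum was 422, 476 and 511 FPKM in shNC and 711, 858 and 708 FPKM in shARHGEF2 libraries. Its means were 469.8 ± 45.0 and 759 ± 85.8 FPKM (SD, n = 3 each). Every shARHGEF2 library lay above every shNC library (exact permutation test, two-sided, p = 0.1, the smallest that 3 against 3 allow), and the ratio of the means was 1.61. With the sum in place of the copies in the fit, its log2 fold change was 0.69 (adjusted p = 0.0511 in limma).

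The promoters of the HSP70 genes are shown because the inducible pair stood higher in shARHGEF2 cells while the constitutive gene did not, and because HSF1 acts through letters in these stretches. They are the 250 bases before the start of each gene from RefSeq (GRCh38.p14). HSPA1A is at chr6:31815293-31815542 on the plus strand, HSPA1B at chr6:31827488-31827737 on the plus strand and HSPA8 at chr11:123062137-123062386 on the minus strand, each written along the gene. Capitals mark the GAA and TTC units of a match to GAANNTTC or TTCNNGAA.
HSPA1A: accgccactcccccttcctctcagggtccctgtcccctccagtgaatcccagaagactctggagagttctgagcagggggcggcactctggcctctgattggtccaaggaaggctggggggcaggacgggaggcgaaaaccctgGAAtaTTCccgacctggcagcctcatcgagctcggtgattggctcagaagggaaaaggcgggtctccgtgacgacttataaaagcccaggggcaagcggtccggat
HSPA1B: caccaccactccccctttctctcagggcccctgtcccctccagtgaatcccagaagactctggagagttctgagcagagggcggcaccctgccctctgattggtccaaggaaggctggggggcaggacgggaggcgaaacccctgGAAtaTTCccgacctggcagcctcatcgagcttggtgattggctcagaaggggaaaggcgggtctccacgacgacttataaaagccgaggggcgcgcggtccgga
HSPA8: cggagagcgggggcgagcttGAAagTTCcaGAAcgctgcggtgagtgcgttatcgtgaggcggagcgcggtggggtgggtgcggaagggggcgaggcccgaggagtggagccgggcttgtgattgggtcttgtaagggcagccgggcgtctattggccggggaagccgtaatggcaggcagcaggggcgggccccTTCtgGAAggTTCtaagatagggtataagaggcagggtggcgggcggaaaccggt

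Each motif reads the same on both strands, and longer matches of 3 units (GAANNTTCNNGAA, or TTCNNGAANNTTC, its reverse complement) contain the shorter ones. HSPA1A and HSPA1B each held 1 match, with the letters GAATATTC, at positions -106 to -99 relative to the start in HSPA1A and -105 to -98 in HSPA1B. HSPA8 held 4 overlapping matches that make up a 3-unit match of each form, one at positions -230 to -218 and the other at -55 to -43. HSPB1 held 1 match, with the letters GAAGGTTC, at positions -182 to -175. In the windows of HSP90AA1, HSP90AB1, HSPH1, DNAJB1 and BAG3 these exact letters did not occur. Each gene was searched only at the first start listed for it. HSP90AA1 and DNAJB1 have 8 and 9 listed transcripts, and promoters at other starts were not searched, so their lack of a match holds for these windows alone. Over the 27305 promoters of the same length, 11.75% held a 2-unit match and 0.44% a 3-unit match, beside 4 and 1 of the 9 promoters of this group that the table holds (HSF1 is not among them). A match is a likeness of letters in a short window. Only exact units were counted, so a longer stretch with an altered unit was left out for every gene, HSPA1A and HSPA1B included. Whether a match goes with a difference between the groups was not tested.

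HSPA8 (ENSG00000109971) encodes the constitutive HSP70, which also strips clathrin from vesicles. It had 78.9, 107 and 78.4 FPKM in shNC and 72.3, 95.8 and 79.5 FPKM in shARHGEF2 libraries. Replicate 2 was the highest of each group, and the groups overlapped. The log2 fold change was -0.09 (SE 0.15, 95% interval -0.43 to 0.25, adjusted p = 0.857 in limma), and it was 0.058 without shNC replicate 2. The ratio of the inducible pair to HSPA8, which no scaling of a library alters, was computed after the values had been seen. A trend along GC content can alter it, as HSPA1A and HSPA1B have 59.31% and 58.75% GC and HSPA8 has 46.66%. The part of such a trend in the ratio was not tested. The ratio was 5.35, 4.44 and 6.52 in shNC and 9.82, 8.96 and 8.90 in shARHGEF2 libraries. The groups did not overlap (means 5.44 ± 1.04 and 9.23 ± 0.518, SD, n = 3 each, exact permutation test, two-sided, p = 0.1, the smallest possible).

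**Figure D2:**
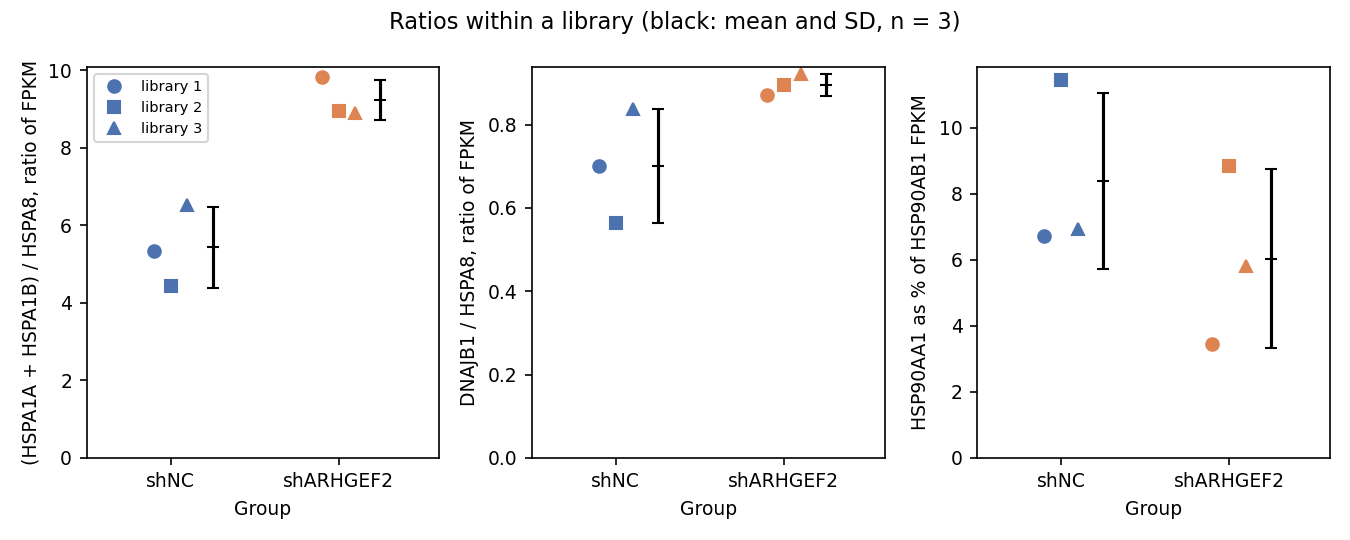
Ratios of FPKM within each library for HSPA1A plus HSPA1B over HSPA8, DNAJB1 over HSPA8, and HSP90AA1 as a percentage of HSP90AB1, with a symbol for each library and the mean and SD of 3 libraries in black. The first and the second ratio are higher in all 3 shARHGEF2 libraries than in any shNC library, and the third overlaps between the groups.

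The partners of HSP70 follow. DNAJB1 (ENSG00000132002), the J-domain protein that delivers clients to HSP70 and starts its ATPase cycle, had 55.3, 60.4 and 65.7 FPKM in shNC and 62.9, 85.7 and 73.2 FPKM in shARHGEF2 libraries. Only shARHGEF2 replicate 1 lay within the range of the control libraries. Its log2 fold change was 0.28 (SE 0.12, 95% interval -0.0047 to 0.56, adjusted p = 0.375 in limma), and it was 0.17 without shARHGEF2 replicate 2. Relative to HSPA8 it stood at 0.701, 0.564 and 0.838 in shNC and at 0.870, 0.895 and 0.921 in shARHGEF2 libraries, without overlap (exact permutation test, two-sided, p = 0.1, the smallest possible). This ratio, too, was chosen after the values had been seen. It sets transcripts of 55.57% GC over those of 46.66%, and the part of a GC trend in it was not tested either.

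BAG3 (ENSG00000151929), a nucleotide exchange factor that routes HSP70 clients to autophagy, had 28.5, 29.3 and 27.5 FPKM in shNC and 36.6, 35.1 and 33.4 FPKM in shARHGEF2 libraries. It had the tightest groups of the 10 genes, with means of 28.5 ± 0.881 and 35 ± 1.6 FPKM (SD, n = 3 each) and no overlap. The ratio was 1.23 and the log2 fold change 0.29 (SE 0.09, 95% interval 0.09 to 0.48), and it did not pass (adjusted p = 0.199 in limma). Its adjusted p lay between 0.148 and 0.458 over 15 alternatives. HSPH1 (ENSG00000120694), the HSP110 exchange factor for HSP70, was the least abundant gene, at 2.53, 4.12 and 3.22 FPKM in shNC and 3.06, 5.18 and 3.73 FPKM in shARHGEF2 libraries. In both groups replicate 1 was lowest and replicate 2 highest. The groups overlapped, with a log2 fold change of 0.21 (SE 0.19, 95% interval -0.22 to 0.65, adjusted p = 0.683 in limma). It was 0.048 without shARHGEF2 replicate 2, 0.081 without shNC replicate 1, and 0.35 without shNC replicate 2 or without shARHGEF2 replicate 1.

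**Figure D3:**
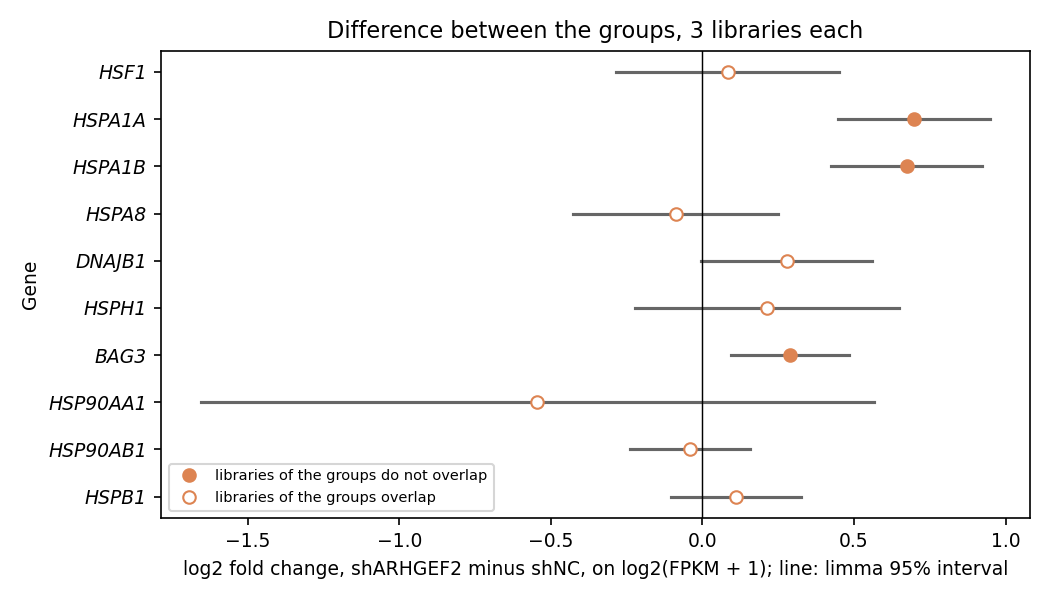
Log2 fold change of each gene (shARHGEF2 minus shNC, on log2(FPKM + 1)) as a point with its limma 95% interval as a line, filled where the libraries of the groups do not overlap. The intervals of HSPA1A, HSPA1B and BAG3 lie above 0 before adjustment over all genes, and that of HSP90AA1 runs from -1.66 to 0.56.

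HSP90 is the chaperone of kinases and steroid receptors, and HSP90AA1 (ENSG00000080824) is its stress-inducible cytosolic form. Its values were 25.4, 47.2 and 26.1 FPKM in shNC and 12.0, 35.3 and 22.4 FPKM in shARHGEF2 libraries. It was the most variable of the 10 genes, with a coefficient of variation of 37.7% in shNC and 50.2% in shARHGEF2 libraries, and the groups overlapped. The log2 fold change was -0.55 (SE 0.44, 95% interval -1.66 to 0.56, adjusted p = 0.663 in limma), and it moved to -0.26 without shNC replicate 2, to -0.16 without shARHGEF2 replicate 1 and to -0.90 without shARHGEF2 replicate 2. HSP90AB1 (ENSG00000096384), the constitutive form, had 377, 412 and 376 FPKM in shNC and 348, 399 and 386 FPKM in shARHGEF2 libraries. These groups overlapped as well, and the coefficients of variation were 5.34% and 6.98%. The log2 fold change was -0.04 (SE 0.09, 95% interval -0.24 to 0.16, adjusted p = 0.890 in limma). HSP90AA1 amounted to 6.73%, 11.4% and 6.94% of HSP90AB1 in shNC and to 3.45%, 8.85% and 5.81% in shARHGEF2 libraries, with overlap (exact permutation test, two-sided, p = 0.4).

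HSPB1 (ENSG00000106211) encodes HSP27, a small heat shock protein that holds unfolded proteins without ATP and also binds actin. It had 392, 373 and 358 FPKM in shNC and 452, 376 and 388 FPKM in shARHGEF2 libraries. Only shARHGEF2 replicate 1 lay above all control libraries. The log2 fold change was 0.11 (SE 0.09, 95% interval -0.10 to 0.33, adjusted p = 0.666 in limma), and it was 0.029 without shARHGEF2 replicate 1.

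Added up, the 10 genes made 1408, 1531 and 1468 FPKM in shNC and 1728, 1915 and 1713 FPKM in shARHGEF2 libraries, that is 0.402%, 0.467% and 0.449% against 0.517%, 0.596% and 0.531% of all FPKM of a library. The groups did not overlap (exact permutation test, two-sided, p = 0.1, the smallest possible). Of the difference of 316 FPKM between the means, 289 FPKM belonged to HSPA1A and HSPA1B. Without this pair the sum was 986, 1055 and 956 FPKM in shNC and 1018, 1057 and 1005 FPKM in shARHGEF2 libraries, and the groups overlapped (exact permutation test, two-sided, p = 0.4).

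Libraries of 1 group differed from each other along the GC content of the genes, and its part in the values of the heat shock genes was not tested. Across the 12231 tested genes with a GC value, Spearman's rho between GC content and a library's deviation from the mean was -0.47 and -0.30 in replicate 2 of shNC and of shARHGEF2 and 0.58 in shARHGEF2 replicate 1 (genes are not independent replicates). Replicate 2 was the highest library of both groups for 4 genes, HSPH1, HSP90AA1, HSPA8 and HSP90AB1. These 4 had transcripts of at most 47.7% GC, and the other 6 had at least 55.6%, beside a median of 51.2% over the genes tested. With a loess trend on GC content removed from each library, an alternative added after the data were seen, the SE of HSPH1 went from 0.19 to 0.11, that of HSP90AA1 from 0.44 to 0.34 and that of HSPA8 from 0.15 to 0.11. It was lower for 7 of the 10 genes, and higher for HSPA1A (0.11 to 0.12), HSPA1B (0.11 to 0.12) and DNAJB1 (0.12 to 0.13). The log2 fold changes moved to 0.23, -0.52 and -0.07 for HSPH1, HSP90AA1 and HSPA8, to 0.02 for HSF1, to 0.05 for HSPB1, to -0.02 for HSP90AB1, to 0.65 for HSPA1A (adjusted p = 0.0729 in limma) and to 0.25 for BAG3 (adjusted p = 0.148 in limma). None of the 10 passed in this fit, in which 63 of 12231 genes did. An unadjusted p under 0.05 was reached by 3 of the 10 and by 2316 of the 12231.

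**Figure D4:**
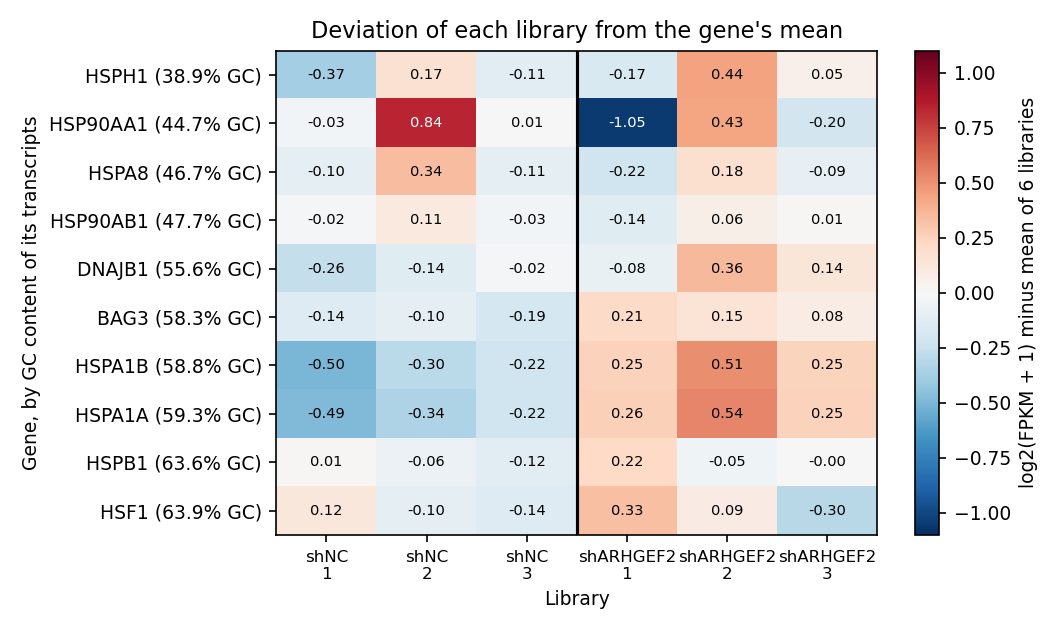
Deviation of log2(FPKM + 1) in each library (columns) from the mean of the 6 libraries for each gene (rows, from the lowest to the highest GC content of its transcripts), with red above and blue below the mean. HSPA1A, HSPA1B and BAG3 are below their mean in all shNC and above it in all shARHGEF2 libraries, while the 4 rows with the lowest GC content are highest in replicate 2 of each group.

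The wider chaperone network was described by lists of genes. In the cytosolic lists and the list of other heat-inducible genes, 67 gene entries beside the 10 genes were tested and 0 were called. HSPA14 has 2 of these entries. At an unadjusted p under 0.05, 4 of the 67 were higher and 2 lower. Of these 67, 40 were on the higher and 27 on the lower side in shARHGEF2 cells. Over all 12291 genes tested, 6102 were on the higher and 6189 on the lower side, which is the background for such counts in every list below. Their median was 0.05 on the log2 scale, and the groups did not overlap in 11 higher and 2 lower genes. Over all genes tested, 8.1% were higher at an unadjusted p under 0.05 and 11.3% were higher without overlap. In both directions together these shares were 13.7% and 20.5%. Whether the counts among the 67 differ from these shares was not tested. Among other genes induced by heat, 17 of 20 were on the higher side (median 0.15). IER5, an immediate early gene that promotes HSF1 activity, had 43.0, 43.4 and 53.9 FPKM in shNC and 59.1, 67.0 and 59.4 FPKM in shARHGEF2 libraries, without overlap (log2 fold change 0.40, adjusted p = 0.180 in limma). Among those averaging 1 FPKM or more, HSPE1, the mitochondrial HSP10, had the smallest p on the lower side and overlapped (log2 fold change -0.27, adjusted p = 0.668 in limma), moving to -0.025 without shNC replicate 1 and to -0.47 without shNC replicate 3. The lists overlap in part, and none of them was tested as a set.

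Of 9 J-domain proteins tested, 7 were on the higher side (median 0.15). DNAJB5, a close relative of DNAJB1, was the gene of these lists nearest to the threshold. It had 1.1, 2.04 and 0.976 FPKM in shNC and 3.68, 4.43 and 3.91 FPKM in shARHGEF2 libraries. No library of one group reached the other, and the log2 fold change was 1.1 (SE 0.17, adjusted p = 0.0501 in limma). DNAJB5 passed in 3 of 15 alternatives, namely without shNC replicate 2 (adjusted p = 0.0365), after quantile normalization (0.0391) and under the filter that asked for 1 FPKM in 3 libraries (0.0425). Of the J-domain genes averaging 1 FPKM or more, DNAJC7 had the smallest p on the lower side, with a log2 fold change of -0.0070 that turned to 0.12 without shARHGEF2 replicate 1.

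The HSP70 relatives beside the 10 genes had 2 of 8 tested entries on the higher side (median -0.06). HSPA14 has 2 of these 8 entries, both on the lower side. HSPA6, a strictly inducible HSP70, was low, at 1.65, 1.67 and 1.64 FPKM in shNC and 1.88, 1.9 and 2.23 FPKM in shARHGEF2 libraries, without overlap (log2 fold change 0.18, adjusted p = 0.535 in limma). HSPA4, another HSP110, overlapped (log2 fold change -0.09, adjusted p = 0.857 in limma). Of the 8 genes for nucleotide exchange and triage of clients, 4 were on either side (median -0.03). BAG1, the founding member of the BAG family, had 11.9, 12.7 and 16.7 FPKM in shNC and 9.28, 10.3 and 9.25 FPKM in shARHGEF2 libraries. It lay below every control library, opposite to BAG3, and did not pass (log2 fold change -0.46, SE 0.14, adjusted p = 0.199 in limma). BAG6 overlapped (log2 fold change 0.14, adjusted p = 0.577 in limma, and 0.078 without shNC replicate 2).

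Of 17 co-chaperones of HSP90, 13 were on the higher side (median 0.06). FKBP4, the immunophilin of steroid receptor complexes, had 67.2, 74.6 and 73.3 FPKM in shNC and 78.7, 81.7 and 79.5 FPKM in shARHGEF2 libraries, without overlap (log2 fold change 0.16, adjusted p = 0.443 in limma). FKBPL overlapped (log2 fold change -0.20, adjusted p = 0.611 in limma, and -0.045 without shARHGEF2 replicate 2). Small heat shock proteins were few, and 3 of 9 beside HSPB1 were tested. HSPB8, the partner of BAG3 in selective autophagy, had 5.09, 5.12 and 4.90 FPKM in shNC and 6.19, 6.27 and 6.29 FPKM in shARHGEF2 libraries (log2 fold change 0.26, SE 0.10, adjusted p = 0.303 in limma). HSPB7 lay the other way, at 8.13, 7.65 and 5.80 FPKM in shNC and 5.01, 3.73 and 3.79 FPKM in shARHGEF2 libraries (log2 fold change -0.66, SE 0.15, adjusted p = 0.128 in limma). Neither gene had overlapping groups and neither passed.

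The list of heat shock factors, which also holds HSBP1 and HSBP1L1, had 2 of 4 tested genes beside HSF1 on the higher side. HSF2 was at 0.32 on the log2 scale (adjusted p = 0.581 in limma, 0.10 without shARHGEF2 replicate 2 and 0.49 without shNC replicate 2). HSBP1, an inhibitor of HSF1, was at -0.07 (adjusted p = 0.851 in limma). Of the 8 subunits of the chaperonin TRiC, which folds actin and tubulin, 2 were on the higher side (median -0.06), CCT6A at 0.10 and TCP1 at -0.09 (adjusted p = 0.852 and 0.801 in limma). Of 7 mitochondrial chaperones, 1 was on the higher side (median -0.14), GRPEL2 at 0.12, and TRAP1 had the smallest p on the lower side at -0.13 (adjusted p = 0.790 and 0.553 in limma), which was -0.084 without shNC replicate 3. All 10 chaperones of the endoplasmic reticulum were on the higher side (median 0.30) and 0 were called. Of them, 3 had an unadjusted p under 0.05 (8.1% of all genes tested in that direction) and 3 did not overlap (11.3%). These genes are not independent observations, and the list was not tested as a set. HYOU1 was at 0.45 (adjusted p = 0.136 in limma). HSPA5, the HSP70 of that compartment, chosen after its values were seen, had the largest difference of the list, at 103, 129 and 133 FPKM in shNC and 168, 329 and 198 FPKM in shARHGEF2 libraries, without overlap (log2 fold change 0.87, SE 0.25, adjusted p = 0.222 in limma). Whether the cytosolic genes differ from these in their response was not tested.

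**Figure D5:**
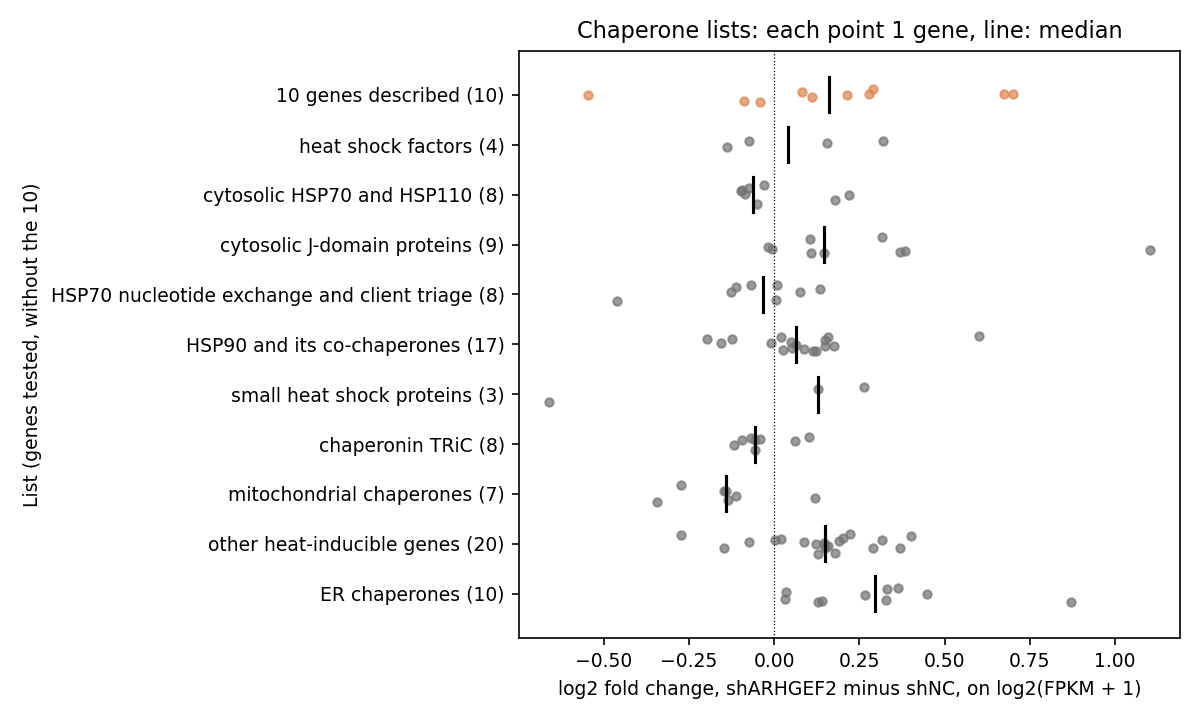
Log2 fold change (shARHGEF2 minus shNC, on log2(FPKM + 1)) of each tested gene by list, with the 10 genes described in orange, the genes of the other lists in grey and a black line at each median. The medians run from -0.14 for the mitochondrial chaperones to 0.30 for those of the endoplasmic reticulum, with 0.16 for the 10 genes.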

How the data were processed

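RNA was measured in 6 libraries of cells labelled HepG2, 3 shNC and 3 shARHGEF2, grouped by their titles. They were made from poly(A) RNA with strand marking and molecular identifiers. The submitters' processing notes name cutadapt 1.9, HISAT2 2.0.4, UMI-tools, StringTie 1.3.4d, DESeq2, edgeR and hg19, without their roles. The authors deposited 1 table of FPKM for each library and gene, with their own ratio (fold), its log2, p-value and adjusted p-value for the contrast, which were not used. The table has no coordinates, and the promoters are of another build (GRCh38.p14) and were matched by symbol (9 of 10).

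Differential expression was computed with limma 3.58.1 and statmod 1.5.0 in R 4.3.3 on log2(FPKM + 1), with trended and robust variances, for genes that averaged 0.5 FPKM or more. The script was tested on simulated data. GC content and transcript lengths were taken from GENCODE 29, which holds 94.7% of the transcripts listed (3 of the 12 of HSPB1). Python 3.11.15, pandas 2.3.3, NumPy 2.4.6, SciPy 1.17.1 and matplotlib 3.10.9 were used. FPKM understate the change of low genes on this scale, and they sum to between 321180 and 350261 in a library.

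The 10 genes and the lists were chosen with earlier results of these data known. Named were the 10, ARHGEF2, and for each list any called gene or otherwise the gene of at least 1 FPKM with the smallest p in each direction. The alternatives were a pseudocount of 0.1, other filters, quantile and median ratio scaling, limma without trend or robust variances, the replicate block, each library left out, the HSP70 copies summed and, added later, the GC content trend removed.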

Additional observations from a re-analysis of the deposited data

How the results depend on the processing

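The data did not settle whether same-numbered libraries are pairs (correlations of their residuals 0.184, 0.159 and -0.105). With the replicate block 0 genes were called over all genes, so that the block also ended the call of ARHGEF2 (log2 fold change -1.47). An unadjusted p under 0.05 was reached by 1976 genes with the block and by 1678 without it. The number of genes called was 34, and it was 1 with no filter beyond a value above 0 (where ARHGEF2, at -1.47, did not pass either), 54 under a filter asking for 1 FPKM in 3 libraries, 19 with quantile normalization, 7 with median ratio scaling, 7 without trend or robust variances, 63 with the GC content trend removed, and between 6 and 102 with 1 library left out (102 without shNC replicate 3). Of the 10 heat shock genes, 0 were called, 3 having an unadjusted p under 0.05. With the replicate block 5 had one, HSP90AA1 (log2 fold change -0.55, unadjusted p = 0.0239 in limma) and DNAJB1 (0.28, 0.0329) among them. The number called was 1 with a pseudocount of 0.1 (HSPA1A) and 2 under a filter asking for 1 FPKM in 3 libraries (HSPA1A and HSPA1B). With 1 library left out it was between 0 and 2 (2 without shNC replicate 3, HSPA1A and HSPA1B), and it was 0 in the other fits. Of the other list genes 0 were called, but 1, DNAJB5, passed under a filter asking for 1 FPKM in 3 libraries, 1 with quantile normalization and between 0 and 1 with 1 library left out. The cause of these moves was not tested.

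Over the 29 genes named by rule, ARHGEF2 left out, 411 of 433 alternative values kept their direction and their side of the threshold. Of the rest, 8 passed the threshold and 14 reversed. None of these 29 genes was called in the main fit, so no call could be lost among them. ARHGEF2 passed in 13 of its 15 alternatives. The reversals occurred without shARHGEF2 replicate 1 (HSF1, HSPA8, HSP90AB1, HSBP1, HSPA4 and DNAJC7), without shNC replicate 2 (HSPA8, HSP90AB1, HSPA4, DNAJC7 and TCP1), without shARHGEF2 replicate 2 (CCT6A and GRPEL2) and with the GC content trend removed (DNAJC7, 0.015). With 1 library left out the log2 fold change lay between -0.064 and 0.25 for HSF1, -0.20 and 0.058 for HSPA8, -0.081 and 0.017 for HSP90AB1, -0.16 and 0.020 for HSBP1, -0.18 and 0.067 for HSPA4, -0.13 and 0.12 for DNAJC7, -0.044 and 0.27 for CCT6A, -0.17 and 0.010 for TCP1, and -0.010 and 0.23 for GRPEL2. The difference of the summed FPKM of HSPA1A and HSPA1B lay between 239 and 314 with 1 library left out, and that of the 10 genes between 252 and 353. FPKM carry no counts, so no counting interval was computed.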

Other observations

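By root mean square difference of log2(FPKM + 1), centred over the 6 libraries, the genes most like HSPA8 among 10210 others of at least 1 FPKM were RBBP6 (0.0295), GNB4 (0.0372) and SLC25A24 (0.0382). The highest values of these 3 genes were 1.93, 2.23 and 3.35 FPKM, while the lowest HSPA8 library had 72.3 FPKM. The scale understates the changes of such low genes, so the likeness depends on it. Likeness over 6 libraries is a description.

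The table lists 14 pseudogenes of HSPA8, HSP90AA1, HSP90AB1, HSPB1 and DNAJB1, of which 3 were tested. Their summed FPKM was 8.71, 5.87 and 4.83 in shNC and 6.14, 7.39 and 5.27 in shARHGEF2 libraries, and the groups overlapped.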
